A study of Homo sapiens with 20 samples.

Results

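GCN2KO keratinocytes that were left unwounded were set directly against WT keratinocytes 6 h after high-density wounding (HDW), to find which transcripts stood at the same level in both and which separated loss of GCN2 from wounding. The members are all RNA-seq libraries that the sample labels place in either group, 5 GCN2KO unwounded and 5 WT HDW, together 10 of the 20 libraries of the study. The cells were NTERT, a line of human keratinocytes immortalized with telomerase. By the study's methods, WT cells received a control sgRNA, and GCN2KO cells were a pool, not a clone, edited with CRISPR-Cas9 guides at exon 2 or exon 12 of the GCN2 gene and used at early passage. Which of the guides made the sequenced pool is not given in the sources used here. Cultures of both genotypes were grown to confluence and differentiated in raised calcium and serum before HDW, in which rows of pipet tips are drawn over the cell layer in crossed directions, leaving a dense grid of wound edges. The compared groups differ in genotype and in wounding together, so the contrast by itself cannot tell these apart, and the 5 WT unwounded and 5 GCN2KO HDW libraries are used below as reference points.

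GCN2 is a protein kinase that senses uncharged tRNA and phosphorylates the translation initiation factor eIF2α. This lowers general translation and favours translation of ATF4, a transcription factor for amino acid synthesis, amino acid transport and tRNA charging, in what is called the integrated stress response. PERK, another eIF2α kinase, acts on the same factor when the endoplasmic reticulum is loaded with unfolded protein. Wounded keratinocytes are known for switching on the keratins KRT6, KRT16 and KRT17, growth factor signalling, laminin-332 and matrix proteases, with which a sheet of cells advances over the wound bed.

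The transcript of GCN2 is listed as EIF2AK4 and lies at chr15:39934115-40035591 of GRCh38. Its normalized read counts were 4303, 4222, 4181, 4282 and 3980.2 in WT HDW cells and 806, 859.9, 935, 906 and 962 in GCN2KO unwounded cells. No library of either group reached the other, and the log2 fold change was -2.23 (edgeR adjusted p = 1.92e-12, SE 0.0638). The 10 libraries held 18783093 to 34611570 counts on genes, so depth limits mainly the weakly expressed genes. The 10 most abundant genes took 8.1% to 8.67% of the counts in GCN2KO unwounded and 6.82% to 7.04% in WT HDW libraries. All 16 keratinocyte markers were tested and their summed level ranged from 1022005 to 1105167 normalized read counts in WT HDW and from 802771 to 965134 in GCN2KO unwounded cells. Of 12 fibroblast, 7 melanocyte, 10 leukocyte and 6 endothelial markers, 4, 3, 4 and 1 passed the filter, and POSTN, TYR, SOX10 and CD207 had no count in any of the 10 libraries. The summed fibroblast markers ranged from 949.6 to 1117 in WT HDW and from 914 to 1242 in GCN2KO unwounded cells, and those of melanocytes from 176 to 209 and from 351 to 517. The summed leukocyte markers ranged from 910.3 to 1072 and from 741 to 1312, and the endothelial ones, of which only KDR passed the filter, from 10.9 to 22.9 and from 21.9 to 38.7. The part of these marker levels in the results was not tested. Chromosome 5 stood apart, with a median log2 fold change of 0.38 over 717 genes against -0.15 to 0.11 on the other autosomes and X, and its medians in steps of 20 Mb were all above 0, from 0.12 to 0.61. It held 115 of the higher and 39 of the lower DE genes, and its genes are marked as such where they are first named. GCN2KO unwounded replicate 1 was the extreme library in more of the genes described here than any other, and the counts of DE genes are given with and without it.

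Of 15771 genes tested, 1209 (7.67%) were DE genes with a higher level in GCN2KO unwounded than in WT HDW cells and 1351 (8.57%) were DE genes with a lower level. Genes were called DE where edgeR's quasi-likelihood test gave a p of 0.05 or less after Benjamini-Hochberg adjustment, together with a change of 1 or more on the log2 scale in either direction. A gene was counted at the same level only where the whole 95% interval of its log2 fold change lay within ±0.5, a factor of 1.41 either way, since a p above a threshold does not show that levels are alike. This held for 5265 genes (33.4%), of which 1913 had a small difference that passed the adjusted p. The other 7946 genes were neither. The levels of 2408 of the 2560 DE genes did not overlap between the 5 libraries of either group. DE genes were called on these same libraries, and the share over all tested genes was not counted, so this is a description only. Without GCN2KO unwounded replicate 1 the counts were 1304 higher, 1489 lower and 5001 at the same level. The median log2 fold change over all tested genes was 0.01, and the 95% interval of a gene reached a median of 0.21 to either side of its value.

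**Figure D1:**
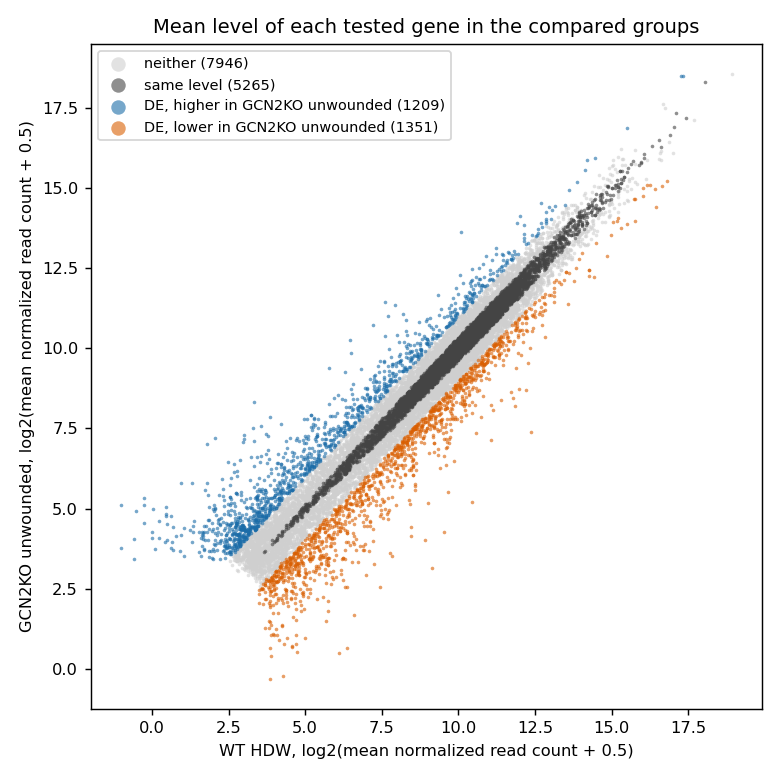
Mean level of each tested gene, as log2 of the mean normalized read count plus 0.5, in the 5 WT HDW libraries (x axis) and the 5 GCN2KO unwounded libraries (y axis), with 1 point per gene. The 1209 higher DE genes lie above the diagonal band of the 5265 same-level genes, and the 1351 lower ones below it.

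The mean level in WT unwounded cells splits each difference into a wounding step, from WT HDW to WT unwounded, and a genotype step, from WT unwounded to GCN2KO unwounded. In 2159 of the 2560 DE genes the genotype step was the larger. This was so for 1054 of the higher genes (87.2%) and for 1105 of the lower genes (81.8%), and the wounding step was the larger in 155 and 246 genes. The genotype step made up a median of 92.9% of the log2 difference in the higher and 87.9% in the lower genes. When the split was instead made at the level of GCN2KO HDW cells, the genotype step was the larger in 2386 of the 2560 genes. These positions are descriptions, and no test was made of them. The genotype step sets the edited pool against control cells. Loss of GCN2 and any other difference between these cell populations cannot be told apart in it.

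**Figure D2:**
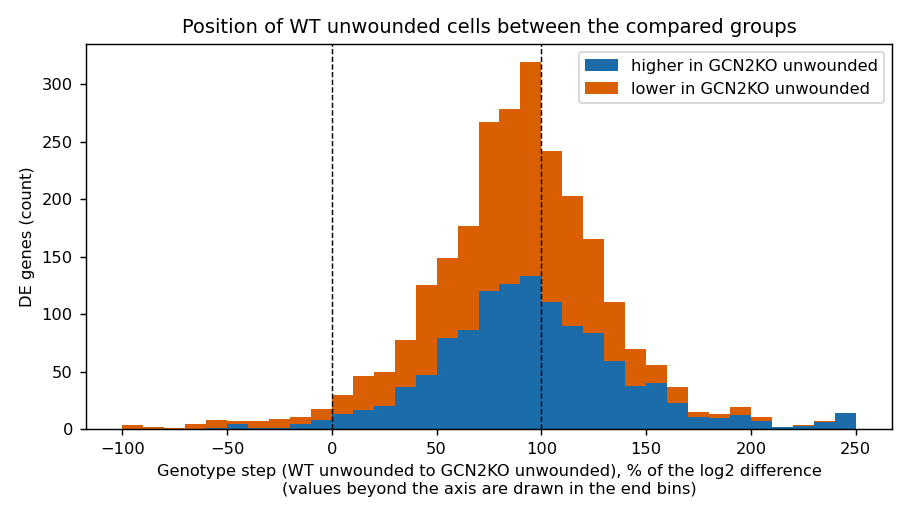
Histogram of the genotype step, from WT unwounded to GCN2KO unwounded, as a percentage of the whole log2 difference (x axis) over the 1209 higher and 1351 lower DE genes (y axis, number of genes, stacked). At 0% WT unwounded cells equal GCN2KO unwounded cells, at 100% they equal WT HDW cells, and the medians lie at 92.9% for higher and 87.9% for lower genes. Below 0% or above 100% WT unwounded cells lie outside the compared groups.

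Among the same-level genes, 587 stood above every WT unwounded library in all 10 libraries of the compared groups, and 570 stood below every one. In 44 of the former and 20 of the latter the distance was at least 1 on the log2 scale, so that unwounded GCN2KO cells and wounded WT cells met at a level at least 2-fold away from unwounded WT cells. Each such gene was chosen both for its distance from WT unwounded and for an interval inside the margin. The distance and the agreement between the compared groups are therefore descriptions, and the intervals printed below are not independent support.

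ASNS, which encodes asparagine synthetase, had 795, 1354, 770.5, 1265 and 1182 normalized read counts in WT unwounded cells. It had 4088, 5438, 5069, 4153 and 4759 in WT HDW and 4931, 4209, 5205, 3938 and 5064 in GCN2KO unwounded cells. The latter groups overlapped, with a difference of -0.01 on the log2 scale (95% interval -0.21 to 0.19), and both lay above all WT unwounded libraries. Of its exonic bases, 49.3% are shared with another gene on the same strand, so its counts are uncertain to that extent. GPAT3, an acyltransferase of triglyceride synthesis at chr4:83535914-83605875, was the same-level gene farthest above WT unwounded, with 89.4, 71.5, 70, 86.7 and 99.5 in WT HDW and 81.9, 90.4, 109, 95.8 and 88.6 in GCN2KO unwounded cells against 1.99 to 13 in WT unwounded cells. Its difference was 0.17 (95% interval -0.10 to 0.44), and 0.23 without WT HDW replicate 5, when the interval crossed the margin. KRT34, a hair keratin, followed, with 34.6, 37, 39.7, 38.9 and 50.2 and 36.4, 42.9, 43.9, 47.1 and 32.1 in the same order against 0 to 12.5. The compared groups overlapped in both genes. PDLIM2, an actin-associated protein with PDZ and LIM domains, stood at 265 to 295 in WT HDW and 251 to 367 in GCN2KO unwounded cells against 64 to 91.4 in WT unwounded cells. The remaining pair of the 6 genes were a pseudogene listed as ENSG00000228626 and ENSG00000231196, which has no name in the annotation used here.

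Farthest below WT unwounded was METTL7A, a methyltransferase-like protein of the endoplasmic reticulum and lipid droplets. It fell from 2778, 2611, 3012, 2634 and 2859.8 normalized read counts in WT unwounded cells to 704, 596, 636, 599 and 669 in WT HDW, and stood at 850.4, 592, 657, 501 and 651 in GCN2KO unwounded cells. The compared groups overlapped (difference 0.02, 95% interval -0.21 to 0.25), and 18.9% of its exonic bases are shared with another gene. CD36, a fatty acid transporter and scavenger receptor, stood at 66.5 to 88.7 in WT HDW and 58.8 to 116 in GCN2KO unwounded cells against 252 to 489 in WT unwounded cells. FGFR3, a growth factor receptor of the basal epidermis, stood at 695, 405, 523, 555 and 555 and 804, 512, 474, 477 and 495 in the same order against 1608 to 2164, and GCN2KO unwounded replicate 1 was the highest of its group. FBXO32, a ubiquitin ligase subunit best known from muscle wasting, and ZNF488, a zinc finger protein, differed by -0.29 (95% interval -0.44 to -0.13) and -0.29 (95% interval -0.49 to -0.08), small differences that passed the adjusted p and were still inside the margin. ZNF488 left the margin when any 1 of 7 libraries was left out, at -0.28 to -0.34. The sixth gene is listed as ENSG00000112096 and has no name in the annotation used here.

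**Figure D3:**
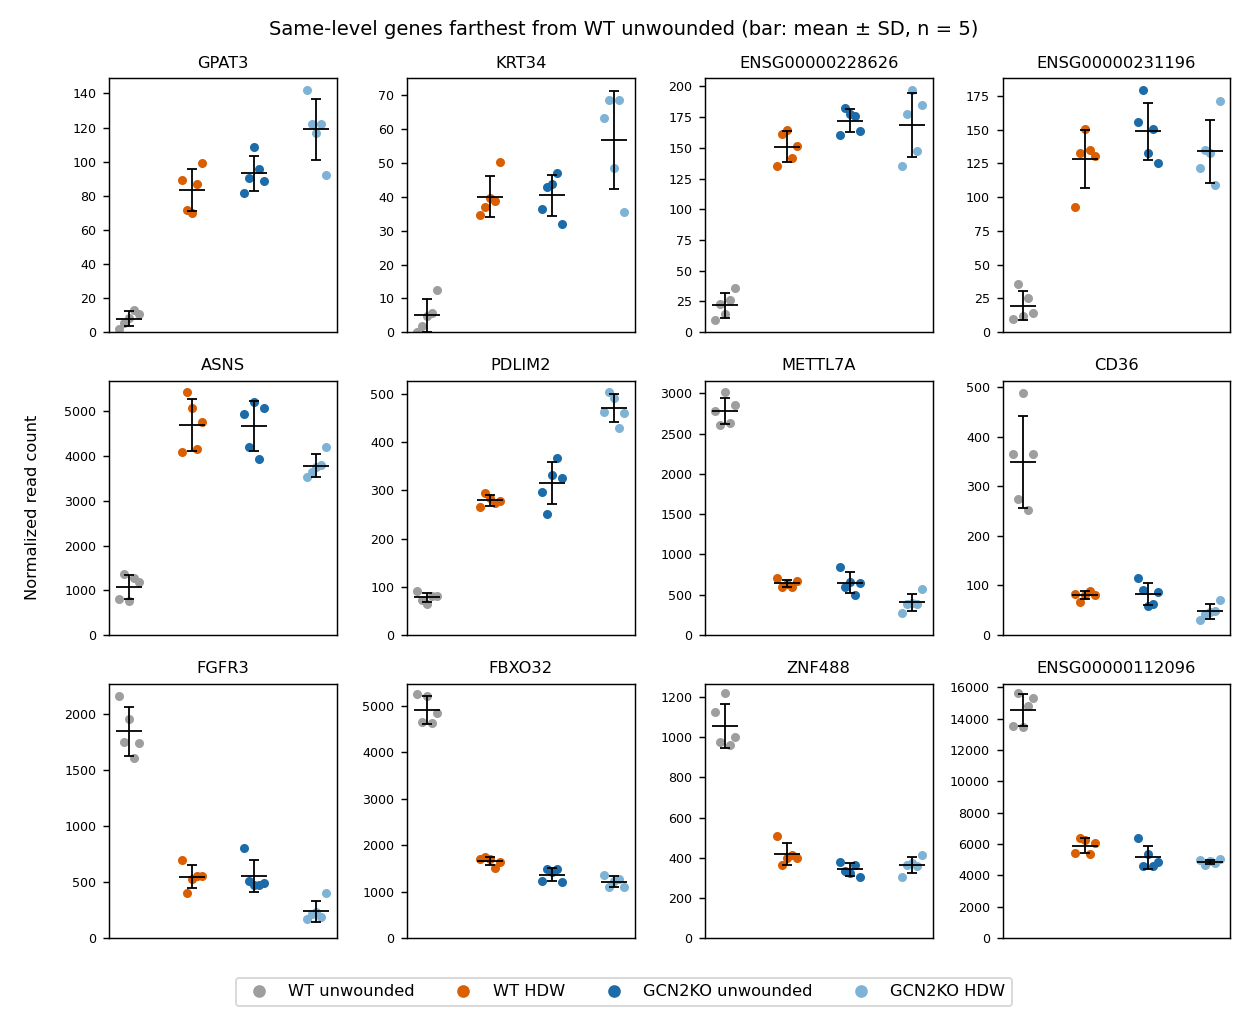
Normalized read counts (y axis, linear from 0) of the 12 same-level genes farthest from WT unwounded, in the 5 libraries of each of 4 groups, with mean ± SD. By the rule of choice, WT HDW and GCN2KO unwounded libraries stand close together in each panel, away from WT unwounded. GCN2KO HDW libraries lie farther still in CD36 and FGFR3.

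The counts of the gene lists below are to be read against 7.67% higher, 8.57% lower and 33.4% same-level genes and the median of 0.01 over all genes. By adjusted p alone, 5371 of all 15771 tested genes were higher and 5309 lower, DE genes included. Members said only to pass the adjusted p are to be read against these counts. Targets of ATF4 and of its partner CHOP fell into several classes. Of 47 genes listed, 45 were tested, and 16 were at the same level, 8 higher and 0 lower. The other 21 all passed the adjusted p but not the fold of a DE gene, 11 with a higher and 10 with a lower level. The median log2 fold change of the list was 0.24, while its median distance from WT unwounded was 0.97 in WT HDW and 1.11 in GCN2KO unwounded cells. The share at the same level, 35.6%, was near the 33.4% of all genes, so that share is not particular to the list.

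Enzymes of amino acid synthesis fell on both sides of the margin. PCK2, the mitochondrial PEP carboxykinase, had 3947, 5303, 4777, 4015 and 4644 normalized read counts in WT HDW and 4449.7, 3671, 3859, 3779 and 3718 in GCN2KO unwounded cells, which overlapped (difference -0.22, 95% interval -0.40 to -0.04), against 1574 ± 359.7 (SD, n = 5) in WT unwounded cells. SHMT2, which passes carbon from serine to folate, and PYCR1, the proline synthesis reductase, differed by 0.03 (95% interval -0.10 to 0.17) and 0.19 (95% interval -0.00 to 0.38), and 29.7% of the exonic bases of PYCR1 are shared with another gene. PSAT1 and PHGDH of serine synthesis passed the adjusted p but not the fold of a DE gene, at -0.46 (edgeR adjusted p = 0.000189, SE 0.0842) and -0.44 (edgeR adjusted p = 0.000375, SE 0.0866). CTH, which makes cysteine from cystathionine, was higher, with 325, 557, 486, 368 and 432 in WT HDW and 945, 1045, 1057, 986 and 1017 in GCN2KO unwounded cells. The groups did not overlap and the log2 fold change was 1.22 (edgeR adjusted p = 2.31e-07, SE 0.115), although both stood far above the 62.1 ± 12 (SD, n = 5) of WT unwounded cells.

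Among transporters, SLC7A11, the cystine carrier, was higher, at 8168, 9456, 8053, 8215 and 8702 in GCN2KO unwounded against 2902, 4772, 4033, 3187 and 3298 in WT HDW cells, with no overlap and a log2 fold change of 1.23 (edgeR adjusted p = 1.99e-07, SE 0.115). Its partner chain SLC3A2 differed by 0.69 (edgeR adjusted p = 9.42e-05, SE 0.117), and SLC7A5, SLC7A1 and SLC1A4, carriers of large neutral, cationic and small neutral amino acids, were at the same level. Among regulators, DDIT3 (CHOP), TRIB3, a pseudokinase that restrains ATF4 signalling, and ATF3, a stress-induced partner of ATF4, were higher. TRIB3 had 13966, 14305, 14437, 14908 and 14031 in GCN2KO unwounded and 5026, 9808, 7730.0, 5391 and 6322 in WT HDW cells, a log2 fold change of 1.06 (edgeR adjusted p = 8.93e-06, SE 0.143), which was 0.97 without WT HDW replicate 1 and 0.98 without WT HDW replicate 4. ATF3 had 1526, 1984, 2677, 2156 and 2361 against 239, 409, 287, 244 and 268, a log2 fold change of 2.89 (edgeR adjusted p = 9.99e-10, SE 0.16), and WT HDW libraries lay near the 226 ± 48.3 (SD, n = 5) of WT unwounded cells. DDIT3 differed by 1.30 (edgeR adjusted p = 1.75e-07, SE 0.12), and 39.6% of its exonic bases are shared with MARS1. CHAC1, which degrades glutathione, differed by 0.67 (edgeR adjusted p = 2.02e-06, SE 0.0778) and was neither a DE gene nor at the same level.

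Cytosolic aminoacyl-tRNA synthetases, which load tRNAs with amino acids, also met in part. All 20 were tested, with 9 at the same level (45%), 1 higher and 1 lower, and a median log2 fold change of 0.14. AARS1, the alanyl enzyme, had 17595, 20932, 19619.6, 17785 and 19174 normalized read counts in WT HDW and 19551, 20444, 18726, 19959 and 17497 in GCN2KO unwounded cells, which overlapped (difference 0.02, 95% interval -0.13 to 0.17), against 8385 ± 2089.6 (SD, n = 5) in WT unwounded cells. MARS1 and YARS1 differed by -0.08 and -0.03, with intervals of -0.22 to 0.06 and -0.17 to 0.11. LARS1, on chromosome 5, was higher, with a log2 fold change of 1.00 (edgeR adjusted p = 8.98e-09, SE 0.0696), and VARS1, the valyl enzyme, was lower, with a log2 fold change of -1.06 (edgeR adjusted p = 6.98e-09, SE 0.0718). The value of LARS1 lies at the threshold for a DE gene and was 0.97 to 1.00, short of it, without GCN2KO unwounded replicate 3 or 5 or WT HDW replicate 1, 4 or 5.

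Promoter sequences of ASNS and AARS1 are shown because both carry the amino acid response element that ATF4 and C/EBP proteins are known to bind. The sequences are from RefSeq (GRCh38.p14), from 250 bases before to 50 bases after the transcription start, 5′ to 3′ on the strand of the gene. The 8 letters TGATGNAA, read on either strand and allowing any base at N, are in capitals, and 3.62% of all 35116 such promoters hold them. ASNS lies on the minus strand at chr7:97872359-97872658, 1 of its 2 listed starts, and AARS1 on the minus strand at chr16:70289457-70289756. Of the 16 synthetases with a promoter in the table, 7 hold the letters. Only 35 of the 47 ATF4 targets have a listed promoter, so a count over that list is void.
ASNS: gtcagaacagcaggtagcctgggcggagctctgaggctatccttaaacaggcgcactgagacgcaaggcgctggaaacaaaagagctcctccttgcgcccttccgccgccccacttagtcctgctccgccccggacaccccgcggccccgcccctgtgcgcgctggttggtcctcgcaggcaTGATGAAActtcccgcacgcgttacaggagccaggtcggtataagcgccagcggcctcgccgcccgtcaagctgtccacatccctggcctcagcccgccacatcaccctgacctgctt
AARS1: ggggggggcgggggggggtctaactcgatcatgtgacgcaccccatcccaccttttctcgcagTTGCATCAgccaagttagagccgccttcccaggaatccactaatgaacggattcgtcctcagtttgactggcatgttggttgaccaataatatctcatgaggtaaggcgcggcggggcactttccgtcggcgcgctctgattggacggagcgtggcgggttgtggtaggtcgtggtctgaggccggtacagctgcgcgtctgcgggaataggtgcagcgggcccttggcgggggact

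Among the 10 higher and 10 lower DE genes that the naming rule puts first, RRAD, a RAS-related GTPase that inhibits calcium channels, had 2594, 2687, 2956, 2984 and 2674 normalized read counts in GCN2KO unwounded against 166, 239, 197, 171 and 207 in WT HDW cells. The groups lay far apart, with a log2 fold change of 3.82 (edgeR adjusted p = 1.32e-12, SE 0.096). TXNRD1, the cytosolic thioredoxin reductase, had 13412, 15523, 14893, 15543 and 14362 against 4395, 4809, 4639, 4337 and 4458, a log2 fold change of 1.70 (edgeR adjusted p = 3.41e-11, SE 0.065). AKR1C1, an aldo-keto reductase that shares reads with near-identical family members, and KDELR3, a receptor that retrieves proteins to the endoplasmic reticulum, had log2 fold changes of 1.71 (adjusted p = 3.41e-11) and 2.27 (adjusted p = 5.49e-11) in edgeR's fit. The histone genes H2BC5 and H1-2, of the large replication-dependent histone cluster on chromosome 6, differed by 2.78 and 3.53, with H1-2 at 1284 to 2126 against 130.4 to 162. Their family is near-identical in sequence, so how reads were divided among its members is uncertain. DNER, a transmembrane ligand with EGF-like repeats, differed by 1.77, and GDPD3, a lysophospholipase of which 24.8% of the exonic bases are shared with a divergent transcript, by 3.36. ELL2, an elongation factor of RNA polymerase II, and SGTB, a co-chaperone, both on chromosome 5, differed by 1.53 and 2.60.

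On the lower side, MYADM, a membrane protein that organizes RAC1 at lipid rafts, was nearly lost from GCN2KO unwounded cells, with 9.09, 12.3, 5.26, 10.9 and 4.22 normalized read counts against 614, 515, 538, 563 and 594 in WT HDW cells. Its log2 fold change was -6.13 (edgeR adjusted p = 1.32e-12, SE 0.16). TENM2, an adhesion receptor on chromosome 5, had 13.2 to 21.6 against 305 to 367, a log2 fold change of -4.34 (edgeR adjusted p = 1.92e-12, SE 0.124), opposite to the shift of its chromosome. C1R, the complement protease, and PLTP, the phospholipid transfer protein, differed by -3.51 and -2.50, with 11.6% and 12.9% of their exonic bases shared with neighbours. MSLN (mesothelin), IGFBP6, a binding protein of insulin-like growth factor 2, and TINAGL1, a matricellular protein, differed by -2.17, -3.62 and -1.83. In all of these lower genes the genotype step was the larger. MELTF, a cell-surface iron-binding protein, stood at 346 to 445 against 2993 to 3585 (log2 fold change -3.08, edgeR adjusted p = 1.32e-12, SE 0.0835), with the genotype step again the larger. In TFPI2, a Kunitz inhibitor of plasmin and matrix proteases, the wounding step was the larger. TFPI2 had 1992, 1745, 2107, 2381 and 2357 in WT HDW, 336 to 429.9 in WT unwounded and 132, 138, 159.6, 152 and 119.9 in GCN2KO unwounded cells, so that WT HDW and GCN2KO unwounded lay on opposite sides of WT unwounded cells, and the difference between them was -3.91 (edgeR adjusted p = 1.32e-12, SE 0.106). The naming rule required that in all 20 leading genes no library of either compared group reached the other group, so this is not a result.

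**Figure D4:**
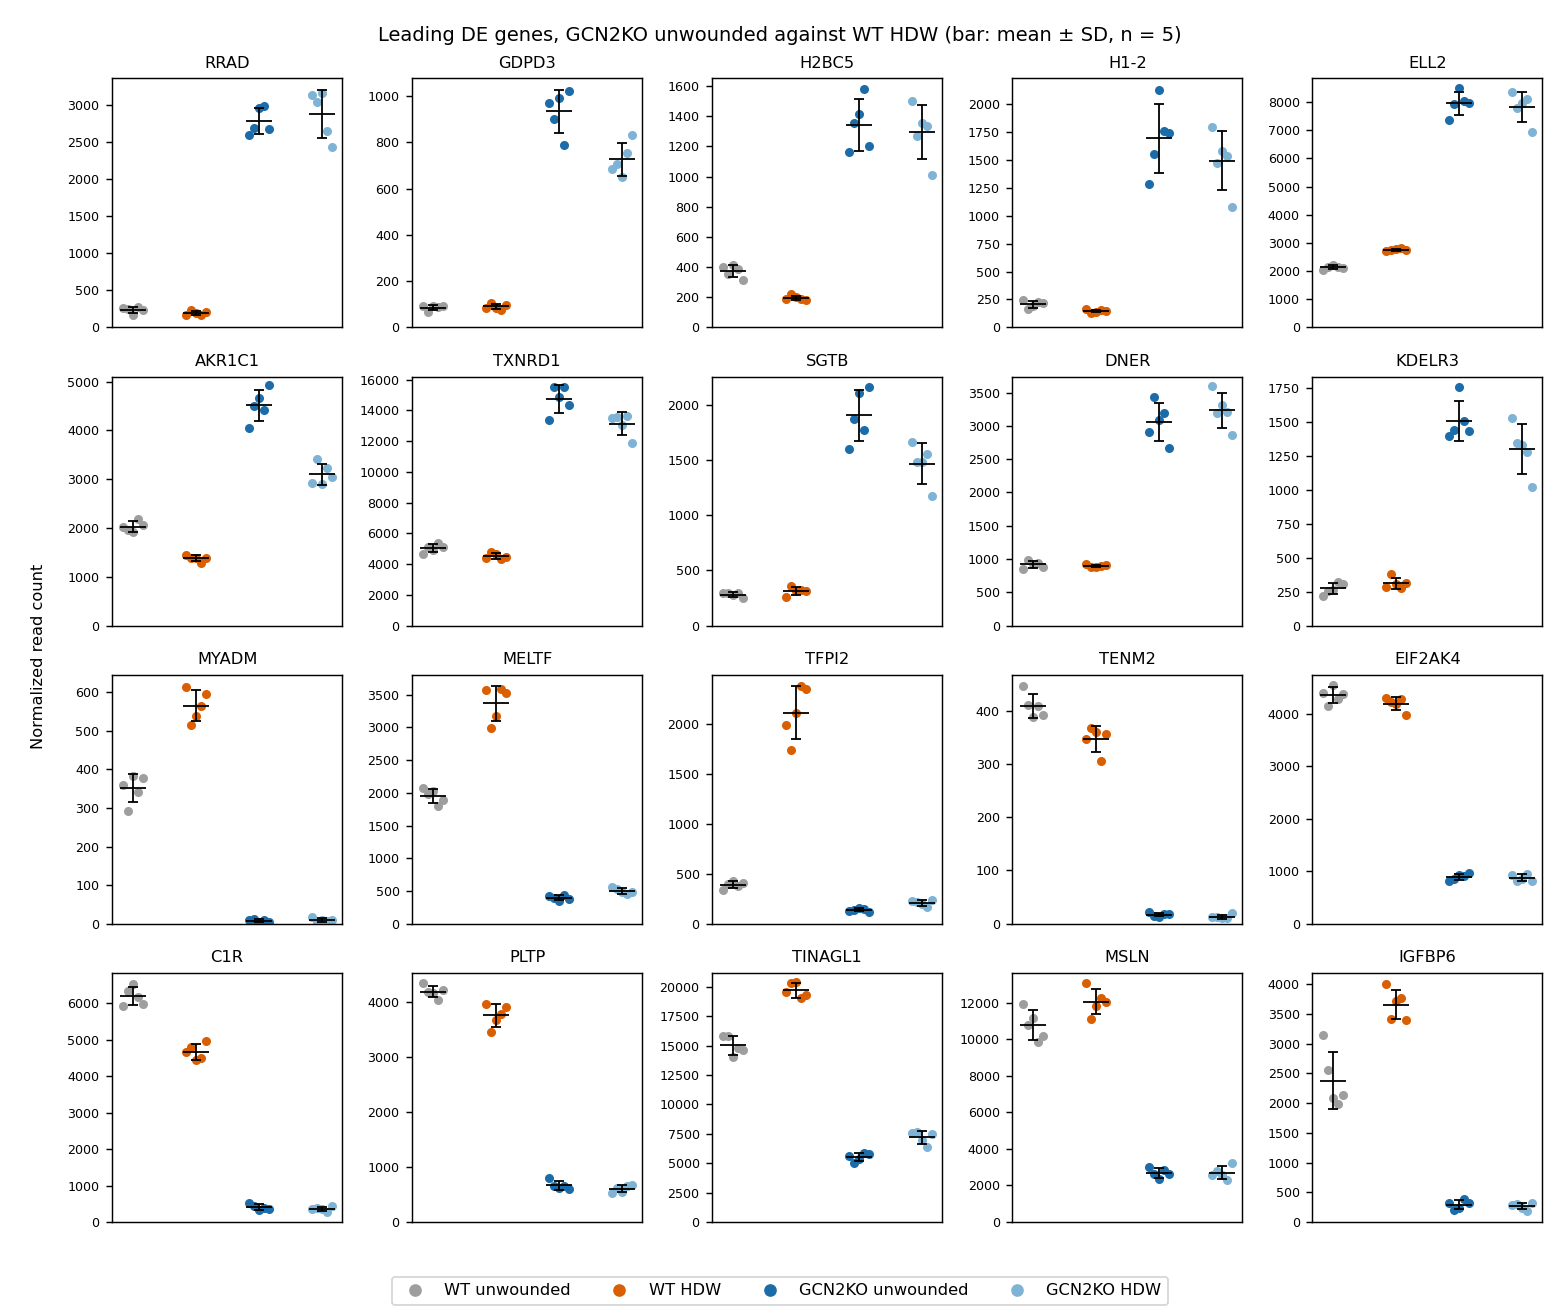
Normalized read counts (y axis, linear from 0) of the 10 higher (upper rows) and 10 lower (lower rows) leading DE genes in the 5 libraries of each of 4 groups, with mean ± SD. In every panel the GCN2KO unwounded libraries are separated from the WT HDW libraries, which the naming rule required, most widely in MYADM.

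Keratins and matrix genes of the wound edge divided. Of the wound-activated keratins, KRT6A and KRT6C were at the same level and KRT16 and KRT17 were higher in GCN2KO unwounded cells. KRT6A had 137795, 133104, 138445, 142384 and 144953 normalized read counts in WT HDW and 168096, 168652, 177466, 177389 and 154109 in GCN2KO unwounded cells, against 68238 ± 3208 (SD, n = 5) in WT unwounded cells. These groups did not overlap, yet the difference was only 0.28 (95% interval 0.13 to 0.43). KRT16 had 6713, 5787, 6399, 6954 and 7159 and 21678, 21689.9, 27126, 25333 and 24726 in the same order, a log2 fold change of 1.87 (edgeR adjusted p = 1.2e-10, SE 0.083), and KRT17 had 146332 to 168736 and 349309.9 to 386187, with an edgeR adjusted p of 2.55e-09 and 10.2% of its exonic bases shared with another gene. KRT6B passed the adjusted p at -0.60 (edgeR adjusted p = 0.000632, SE 0.126) but not the fold of a DE gene, with 5978 to 10260.1 in GCN2KO unwounded and 10947 to 14577 in WT HDW cells against 1007 ± 83.1 (SD, n = 5) in WT unwounded cells. The KRT6 genes are close copies of each other, so their separate counts are uncertain. Of the basal keratins, KRT5 was at the same level (difference 0.27, 95% interval 0.11 to 0.44) and its partner KRT14 was lower, with a log2 fold change of -1.06 (edgeR adjusted p = 1.65e-08, SE 0.078).

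Of 32 listed genes of the cornified envelope, the protein shell of the outermost keratinocytes, 24 were tested, with 10 higher, 1 lower and 3 at the same level, and a median log2 fold change of 0.38. SPRR2A, a small proline-rich crosslinking protein, had 1759, 2522, 3472, 2968 and 2306 normalized read counts in GCN2KO unwounded against 195, 253, 210.1, 269 and 279 in WT HDW cells, where 61.9 ± 18.9 (SD, n = 5) was found in WT unwounded cells. Both compared groups stood above WT unwounded cells, WT HDW cells less far, and they differed by 3.44 (edgeR adjusted p = 2.72e-10, SE 0.165). SPRR3 had 2232, 1985, 2296, 1938 and 1957 against 228, 110.2, 172, 281 and 248 (log2 fold change 3.33, edgeR adjusted p = 5.19e-10, SE 0.173), and IVL (involucrin) had 8429.9 to 14743 against 3858 to 4861 (log2 fold change 1.31, edgeR adjusted p = 4.42e-07, SE 0.132). Reads of the SPRR2 genes, also near-identical, may be divided among copies. TGM1, the transglutaminase that crosslinks the envelope, was at the same level, while TGM5, a transglutaminase of the outer layers, was lower, with 5.68, 0, 0.877, 4.2 and 2.53 against 129, 57.2, 82.7, 114 and 97.7 (log2 fold change -5.05, edgeR adjusted p = 1.48e-08, SE 0.369). CRNN (cornulin) had 113 raw counts over the GCN2KO unwounded libraries and 2 over the WT HDW ones, a ratio of 64.4 (exact 95% counting interval 17.4 to 538). LORICRIN had at most 2 counts in any of the 10 libraries and was not tested.

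The SPRR2A promoter (minus strand, chr1:153057463-153057762) is shown for an AP-1 motif, TGANTCA on either strand, in capitals. AP-1 is the dimer of FOS and JUN proteins, and 16 of the 27 envelope genes with a listed promoter hold these letters, against 7.71% of all promoters.
SPRR2A: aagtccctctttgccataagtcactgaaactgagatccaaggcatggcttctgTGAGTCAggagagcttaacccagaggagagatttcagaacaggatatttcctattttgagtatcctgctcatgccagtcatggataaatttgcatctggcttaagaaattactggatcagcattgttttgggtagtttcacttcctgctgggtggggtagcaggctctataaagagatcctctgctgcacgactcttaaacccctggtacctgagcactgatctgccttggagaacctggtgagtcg

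Early response genes of growth factor signalling fell into both classes. Of 32 tested, 11 were lower, 2 higher and 10 at the same level, with a median of -0.55. FOSL1, an AP-1 subunit of migrating keratinocytes, had 837, 956, 1042, 923 and 949 normalized read counts in WT HDW and 225, 229.9, 234, 253 and 207 in GCN2KO unwounded cells (log2 fold change -2.03, edgeR adjusted p = 3.63e-11, SE 0.0791). DUSP6, a feedback phosphatase of ERK, had 787 to 927 and 232 to 256 in the same order (log2 fold change -1.86, edgeR adjusted p = 3.63e-11, SE 0.0725), and 28.6% of its exonic bases are shared with another gene. In both genes WT HDW rose above WT unwounded cells (log2 fold changes of 1.58 and 1.72), and for GCN2KO unwounded against WT unwounded cells, a comparison that shares the WT unwounded libraries, the values were -0.44 and -0.14. EGR1, on chromosome 5, had 4842, 4821, 5060.0, 4708 and 5005 against 1107, 729.6, 581, 718 and 609.6 (log2 fold change -2.71, edgeR adjusted p = 4.58e-10, SE 0.139), and GCN2KO unwounded replicate 1 was the highest of its group. PHLDA1, a regulator of cell survival, was at the same level, with 7054, 8013, 8456, 7879.6 and 7558 and 7667, 8175, 8109, 8629.6 and 8178, and both groups stood above the 3567 ± 209 (SD, n = 5) of WT unwounded cells. KLF4, a differentiation factor, also met at the same level (difference 0.17, 95% interval 0.03 to 0.32). DUSP1, a phosphatase of stress kinases on chromosome 5, was higher, at 1061 to 1566 against 289 to 346 (log2 fold change 2.09, edgeR adjusted p = 2.84e-10, SE 0.101).

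Of 13 tested ligands and receptors of the EGF receptor family, 5 were at the same level, 2 lower and 1 higher, with a median of -0.24, and 3 more passed the adjusted p with a lower level. The ligands amphiregulin, epiregulin and TGF-α, which drive keratinocyte migration, were at the same level. AREG had 7564, 10278, 9619, 8267 and 8587 normalized read counts in WT HDW and 6949, 6242, 7976, 6601 and 9072 in GCN2KO unwounded cells, which overlapped (difference -0.27, 95% interval -0.49 to -0.04). Without GCN2KO unwounded replicate 3 or 5 or WT HDW replicate 1, 4 or 5 the difference was -0.28 to -0.35 and its interval crossed the margin. EREG and TGFA differed by -0.14 and 0.18, with intervals of -0.34 to 0.06 and 0.06 to 0.30. In all of these the compared groups exceeded WT unwounded cells, with log2 fold changes of 0.96, 1.38 and 0.52 in WT HDW and 0.70, 1.24 and 0.71 in GCN2KO unwounded cells for AREG, EREG and TGFA. HBEGF, on chromosome 5, differed by -0.67 (edgeR adjusted p = 1.89e-05, SE 0.0969), short of the fold of a DE gene, and so did EPGN (epigen) and the receptor ERBB2, by -0.78 and -0.43. The DE genes were the ligand NRG1 (neuregulin 1), lower at 196 to 258 against 426 to 513 (log2 fold change -1.05, edgeR adjusted p = 1.03e-07, SE 0.092), the receptor ERBB4, lower at 0.841 to 9.29 against 17.7 to 33.7 (log2 fold change -2.88, edgeR adjusted p = 1.51e-05, SE 0.407), and EGF itself, higher at 15.3 to 22.8 against 4.99 to 8.44 (log2 fold change 1.64, edgeR adjusted p = 1.49e-05, SE 0.231), with no overlap in any of these. The receptors EGFR and ERBB3 were at the same level (differences 0.10 and -0.24).

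Many genes of matrix proteolysis and of the basement membrane were lower in GCN2KO unwounded than in wounded WT cells, though not all. Of 24 tested genes of matrix metalloproteinases, plasminogen activation and their inhibitors, 11 were lower, 0 higher and 4 at the same level, with a median of -0.87. Of the others, 5 passed the adjusted p with a lower level and 3 with a higher level. MMP9, a gelatinase of the wound edge, had 911, 524, 611, 796 and 835 normalized read counts in WT HDW, 90.6 to 146 in WT unwounded and 19.3, 21.5, 10.5, 26.9 and 16 in GCN2KO unwounded cells, so that the compared groups lay on opposite sides of WT unwounded cells (log2 fold change -5.29, edgeR adjusted p = 4.38e-11, SE 0.21). Of its exonic bases, 18.4% are shared with the antisense transcript SLC12A5-AS1. MMP10 (stromelysin-2) had 27.8 to 72.5 against 0.877 to 6.72 (log2 fold change -4.01, edgeR adjusted p = 2.56e-07, SE 0.384). ADAM8, a sheddase, had 557, 697, 668, 638 and 691 against 81.9, 95, 96.5, 134 and 96.2 (log2 fold change -2.68, edgeR adjusted p = 9.2e-11, SE 0.116). MMP13 was also lower (log2 fold change -2.77, edgeR adjusted p = 2.73e-06, SE 0.332), although wounding lowered it from 239 ± 25.2 (SD, n = 5) in WT unwounded to 75.2 ± 27.3 (SD, n = 5) in WT HDW cells. PLAU (urokinase) was lower, with a log2 fold change of -1.57 (edgeR adjusted p = 1.43e-09, SE 0.0906), with 31% of its exonic bases shared with C10orf55, while the inhibitors TIMP1 and TIMP2 were at the same level.

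Of 28 tested laminin, collagen and matrix genes, 16 were lower, 1 higher and 5 at the same level, with a median of -1.16. LAMB3 and LAMA3, which encode chains of laminin-332, the laminin on which keratinocytes migrate, parted from each other. LAMB3 had 168563, 176542, 179269, 173541 and 180732 normalized read counts in WT HDW and 132784, 176051, 139503, 181914 and 123413 in GCN2KO unwounded cells, which overlapped (difference -0.22, 95% interval -0.45 to 0.01). Without GCN2KO unwounded replicate 2 or 4 the difference was -0.28 or -0.30 and the interval crossed the margin. LAMA3 had 111924, 107995, 114038, 117579.5 and 116744 and 46121, 44145, 31333, 39774 and 32094 in the same order (log2 fold change -1.55, edgeR adjusted p = 8.33e-09, SE 0.107), with no overlap. Against WT unwounded cells, both rose with HDW, by log2 fold changes of 0.96 for LAMA3 and 1.31 for LAMB3. In GCN2KO unwounded cells the values against the same WT unwounded libraries were -0.59 and 1.09. COL4A1 and COL4A2, the paired chains of type IV collagen, were lower, with a log2 fold change of -2.88 (edgeR adjusted p = 8.94e-11, SE 0.124) and -3.33 (edgeR adjusted p = 4.95e-11, SE 0.135), and COL4A1 stood at 171 to 288 against 1686 to 1739. COL17A1, a hemidesmosome collagen, was lower, with a log2 fold change of -1.43 (edgeR adjusted p = 1.89e-09, SE 0.0853).

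Integrins, which anchor cells to this matrix, and focal adhesion genes had 7 lower, 7 same-level and 0 higher members of 24 tested, with a median of -0.67. ITGB8, a subunit of a TGF-β-activating integrin, had 4868, 3524, 3912, 5185 and 4544 normalized read counts in WT HDW and 1339, 1354, 916, 1183 and 1090.0 in GCN2KO unwounded cells (log2 fold change -1.91, edgeR adjusted p = 3.42e-09, SE 0.12). ITGB4 of the hemidesmosome was lower, with a log2 fold change of -1.05 (edgeR adjusted p = 1.86e-06, SE 0.121) that was -0.97 without GCN2KO unwounded replicate 3 or 5, and ITGA4 with -3.28 (edgeR adjusted p = 8.59e-08, SE 0.284), of which 26.4% of the exonic bases are shared with CERKL. ITGA5, the fibronectin receptor chain, was at the same level (difference 0.07, 95% interval -0.09 to 0.23). The GTPases RAC1 and RHOA, which drive protrusion and contraction of migrating cells, were at the same level (differences 0.26 and 0.30), and 19% of the exonic bases of RHOA are shared with another gene. DUOX1, a hydrogen peroxide-producing oxidase, was lower at 667 to 1082 against 1938 to 2564 (log2 fold change -1.42, edgeR adjusted p = 6.06e-08, SE 0.119). Contractile and SRF or YAP target genes counted 5 lower, 1 higher and 7 same-level of 25 tested, with a median of -0.65. ACTB (β-actin), with 85772 to 110684 in WT HDW and 31345 to 37732 in GCN2KO unwounded cells, was lower, with a log2 fold change of -1.56 (edgeR adjusted p = 8.79e-10, SE 0.0854).

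**Figure D5:**
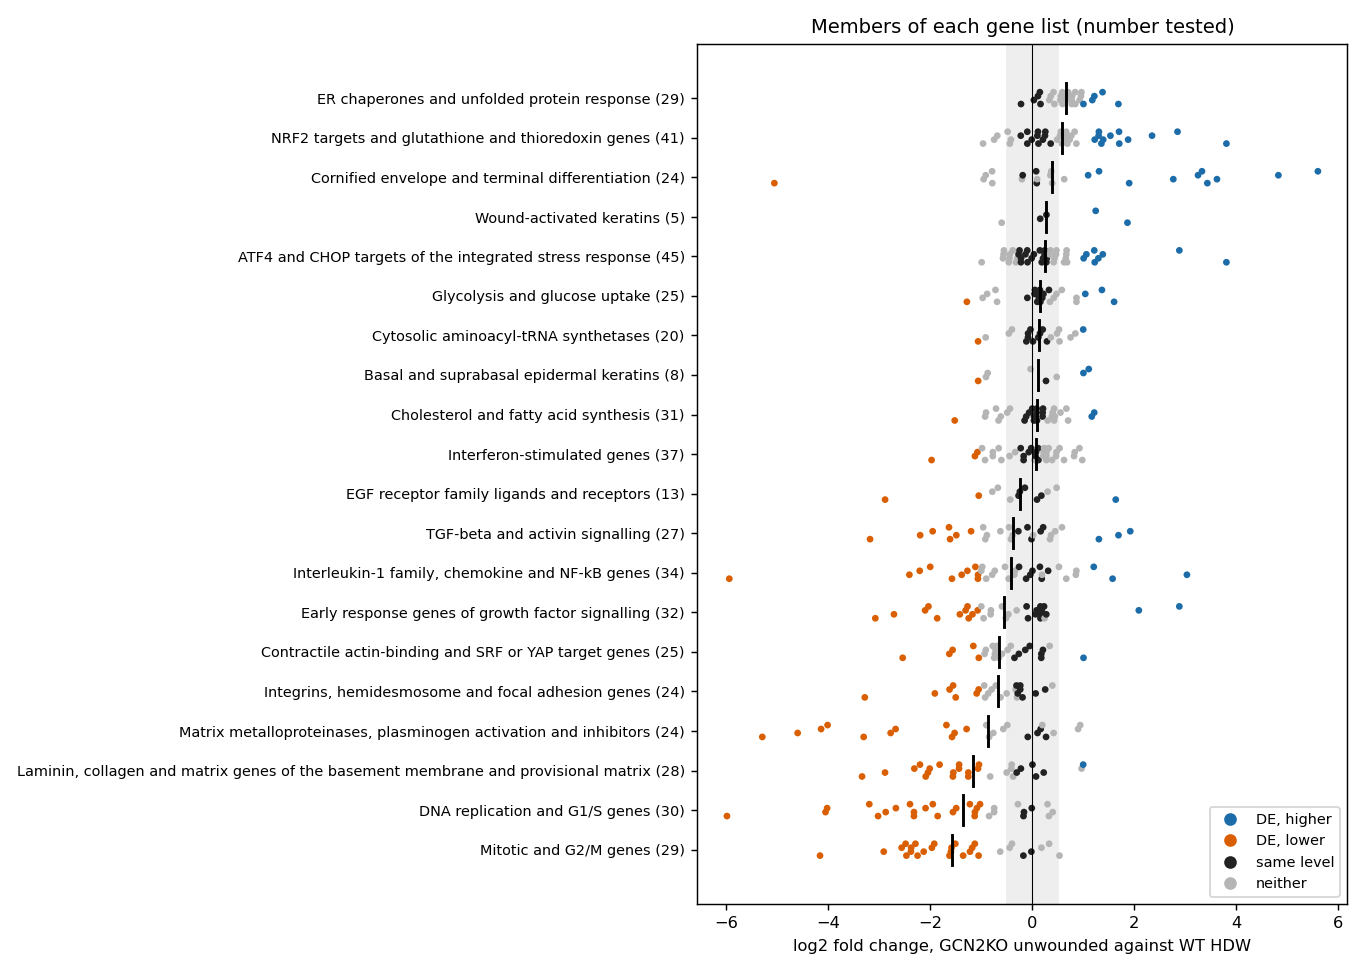
Log2 fold change of GCN2KO unwounded against WT HDW (x axis) for each tested member (points) of 20 gene lists (y axis, number tested in parentheses), with the list median as a bar and the ±0.5 margin shaded. Medians run from -1.58 for mitotic genes to 0.67 for ER chaperones, against 0.01 over all genes.

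Cell division genes had the lowest medians. Of 30 genes of DNA replication and the G1/S step, all tested, 20 were lower, 0 higher and 3 at the same level (median -1.35). Of 29 tested mitotic genes, 21 were lower, 0 higher and 2 at the same level (median -1.58). MCM6, a subunit of the replicative helicase, had 1817, 999, 1261, 1855 and 1638 normalized read counts in WT HDW and 186, 133, 179.8, 165 and 157 in GCN2KO unwounded cells, against 336 ± 26.5 (SD, n = 5) in WT unwounded cells (log2 fold change -3.19, edgeR adjusted p = 4.22e-10, SE 0.162). E2F1, which drives entry into S phase, had 98.4 to 196 against 5.68 to 11.8 (log2 fold change -4.02, edgeR adjusted p = 5.74e-09, SE 0.267), and PCNA, the replication clamp, was at the same level (difference -0.16, 95% interval -0.35 to 0.03). Among mitotic genes, CDK1 had 83.5, 65.6, 73.4, 84.7 and 84.8 against 26.1, 12.3, 21.9, 12.6 and 25.3 (log2 fold change -1.97, edgeR adjusted p = 3.02e-07, SE 0.191), and TOP2A 202 to 336 against 58.8 to 73.9 (log2 fold change -2.13, edgeR adjusted p = 8.03e-09, SE 0.146). Replication genes stood a median of 0.97 above WT unwounded in WT HDW cells and -0.27 from it in GCN2KO unwounded cells, and for mitotic genes these medians were 0.18 and -1.19. In bulk RNA, fewer dividing cells and less RNA of these genes per cell cannot be told apart.

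The promoters of MCM6 (minus strand, chr2:135876394-135876693) and CDK1 (plus strand, chr10:60778081-60778380, 1 of 2 listed starts) are shown for the motifs known from each phase. In MCM6 the capitals mark the E2F motif TTTNNCGC, which matches 4 times in overlapping pairs, counting both strands, and in CDK1 they mark the CHR motif TTTGAA of late cell cycle genes. TTTNNCGC is in 6.89% of all promoters and in those of 16 of 26 tested replication genes with a listed promoter, among them 12 of 17 lower ones. TTTGAA is in 15.2% of all and in those of 15 of 24 tested mitotic genes with a listed promoter, among them 11 of 17 lower ones. The lower genes are most of each list, so neither motif is shown to be particular to them.
MCM6: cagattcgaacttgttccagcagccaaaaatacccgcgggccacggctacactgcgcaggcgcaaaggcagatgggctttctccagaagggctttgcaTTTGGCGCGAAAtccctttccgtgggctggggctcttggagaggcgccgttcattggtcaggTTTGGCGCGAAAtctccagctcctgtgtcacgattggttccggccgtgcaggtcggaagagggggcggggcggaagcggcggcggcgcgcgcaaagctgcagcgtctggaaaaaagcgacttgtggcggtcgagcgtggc
CDK1: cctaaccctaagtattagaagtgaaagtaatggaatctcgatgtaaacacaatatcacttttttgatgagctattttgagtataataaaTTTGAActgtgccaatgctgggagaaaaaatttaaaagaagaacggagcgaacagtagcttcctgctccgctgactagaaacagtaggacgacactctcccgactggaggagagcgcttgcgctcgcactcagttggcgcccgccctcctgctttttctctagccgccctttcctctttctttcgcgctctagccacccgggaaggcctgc

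Chaperones and folding enzymes of the endoplasmic reticulum lay higher in GCN2KO unwounded cells. Of 29 genes, all tested, 5 were higher, 0 lower and 5 at the same level, for a median of 0.67. The remaining 19 all passed the adjusted p with a higher level but a log2 fold change under 1. Over all 15771 tested genes, 5371 passed the adjusted p with a higher level, DE genes included. HSPA5 (BiP), the main chaperone of the compartment, had 311876, 400339, 390242, 398181 and 352844 normalized read counts in GCN2KO unwounded against 148335, 185327, 167663, 153669.5 and 163381 in WT HDW cells, where WT unwounded cells had 75658 ± 17825 (SD, n = 5). The compared groups did not overlap (log2 fold change 1.18, edgeR adjusted p = 3.86e-08, SE 0.0945). CANX (calnexin), on chromosome 5, was higher, with a log2 fold change of 1.38 (edgeR adjusted p = 9.45e-10, SE 0.0761), and DNAJB9, a co-chaperone of BiP, with 1.69 (edgeR adjusted p = 5.26e-07, SE 0.173). SDF2L1 and MANF, other partners of BiP, were at the same level. SDF2L1 had 2474, 3605, 3232, 2586 and 2547 in WT HDW and 1986, 2679, 3210.1, 3372 and 3527 in GCN2KO unwounded cells (difference 0.04, 95% interval -0.27 to 0.34), and MANF differed by 0.11 (95% interval -0.04 to 0.27).

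The HSPA5 promoter (minus strand, chr9:125241294-125241593) is shown for the ER stress response element, CCAAT and CCACG with any 9 bases between them, on either strand, in capitals. These letters are in 0.0769% of all promoters and in those of 8 of 27 genes of this list with a listed promoter.
HSPA5: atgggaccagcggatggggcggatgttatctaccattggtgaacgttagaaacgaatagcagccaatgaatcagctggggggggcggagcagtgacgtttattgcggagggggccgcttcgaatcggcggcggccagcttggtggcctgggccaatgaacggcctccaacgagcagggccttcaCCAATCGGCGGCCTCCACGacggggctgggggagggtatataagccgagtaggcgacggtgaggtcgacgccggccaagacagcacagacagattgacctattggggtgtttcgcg

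Targets of NRF2, which governs the antioxidant response, counted 12 higher, 0 lower and 11 same-level genes of 41 tested, with a median of 0.59. SOD2, also listed, had no match by symbol and is missing from these counts, which does not show that it was unexpressed. The list shares CHAC1, HMOX1 and SLC7A11 with the ATF4 list. GCLM, the regulatory subunit of glutathione synthesis, had 2377, 2429.6, 2227, 2313 and 2189 normalized read counts in GCN2KO unwounded against 895, 1035, 967, 869 and 905 in WT HDW cells (log2 fold change 1.30, edgeR adjusted p = 3.55e-10, SE 0.0644). WT unwounded cells, at 1739 ± 136 (SD, n = 5), lay between the groups. HMOX1 (heme oxygenase) had 661, 1573, 1201, 1729 and 1024 against 91, 94.2, 90.3, 94.7 and 70.9 (log2 fold change 3.81, edgeR adjusted p = 1.78e-09, SE 0.226). NQO1, a quinone reductase, was higher, with a log2 fold change of 1.39 (edgeR adjusted p = 1.15e-08, SE 0.0992), with 19.4% of its exonic bases shared, and the ferritin chain FTL with 1.36 (edgeR adjusted p = 5.99e-09, SE 0.0906). GPX4, which reduces lipid peroxides, differed by -0.68 (edgeR adjusted p = 1.62e-07, SE 0.0625), short of the fold of a DE gene, and CAT (catalase) was at the same level, at 797 to 873 in WT HDW and 651 to 881 in GCN2KO unwounded cells against 1557 ± 145 (SD, n = 5) in WT unwounded cells.

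The TXNRD1 promoter (plus strand, chr12:104215529-104215828, 1 of 2 listed starts) is shown for the antioxidant response element core, TGACNNNGC on either strand, which it holds 2 times, in capitals. Of all promoters 13.3% hold these letters. Only 29 of the 42 listed NRF2 targets have a listed promoter, so a count over that list is void.
TXNRD1: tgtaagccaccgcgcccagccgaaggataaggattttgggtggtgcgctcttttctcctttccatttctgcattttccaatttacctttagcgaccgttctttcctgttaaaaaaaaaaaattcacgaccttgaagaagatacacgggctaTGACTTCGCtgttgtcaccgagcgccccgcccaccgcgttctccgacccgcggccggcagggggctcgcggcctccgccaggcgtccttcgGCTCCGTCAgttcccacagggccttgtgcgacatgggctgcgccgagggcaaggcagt

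Inflammatory genes of the interleukin-1, chemokine and NF-κB group counted 10 lower, 3 higher and 7 same-level members of 34 tested, with a median of -0.40, and 9 of the 43 listed were too weakly expressed to test. IL1B had 3137, 3732, 3959.5, 3475 and 3727 normalized read counts in WT HDW and 1377, 1071, 1233, 1180.1 and 1198 in GCN2KO unwounded cells (log2 fold change -1.57, edgeR adjusted p = 4.05e-10, SE 0.0788). TNFAIP3, a brake on NF-κB, was lower, with a log2 fold change of -1.38 (edgeR adjusted p = 2.03e-09, SE 0.083), PTGS2 (cyclooxygenase-2) with -1.06 (edgeR adjusted p = 2.21e-08, SE 0.0806) and CXCL8, a neutrophil chemokine, with -1.27 (edgeR adjusted p = 2.2e-05, SE 0.186). IL1RN, the interleukin-1 receptor antagonist, was at the same level (difference 0.15, 95% interval -0.05 to 0.36), with both groups above the 894 ± 70 (SD, n = 5) of WT unwounded cells. Interferon-stimulated genes had 3 lower, 0 higher and 9 same-level members of 37, with a median of 0.08. MX1, an antiviral GTPase, had 6517, 10777, 8337, 5974 and 8091 in WT HDW and 9721, 6643, 5889, 6401 and 6726 in GCN2KO unwounded cells, which overlapped (difference -0.17, 95% interval -0.49 to 0.16), against 12627 ± 2412 (SD, n = 5) in WT unwounded cells. Its interval crossed the margin without GCN2KO unwounded replicate 1 or 5 or WT HDW replicate 1, 3, 4 or 5, with differences of -0.14 to -0.31.

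In TGF-β and activin signalling, 7 of 27 genes were lower, 3 higher and 5 at the same level, with a median of -0.38. The ligands TGFB1 and INHBA (activin A) were lower, with a log2 fold change of -1.20 (edgeR adjusted p = 1.06e-08, SE 0.0844) and -1.61 (edgeR adjusted p = 1.06e-09, SE 0.0898), and INHBA had 7422, 5948, 6463, 7739 and 7318 normalized read counts in WT HDW and 2094, 2434, 2342, 2575 and 1987 in GCN2KO unwounded cells. FST (follistatin), which binds activin, lies on chromosome 5 and was lower, with a log2 fold change of -1.95 (edgeR adjusted p = 2.88e-10, SE 0.0942), and ID2, a target of the pathway, with -2.19 (edgeR adjusted p = 9.76e-07, SE 0.238), while the shared mediator SMAD4 was at the same level (difference -0.01).

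Metabolic lists lay near the level of all genes. Cholesterol and fatty acid synthesis counted 12 same-level genes of 31 (median 0.09), and glycolysis 11 same-level, 3 higher and 1 lower genes of 25 (median 0.16). GAPDH was at the same level, with 63797 to 71297 normalized read counts in WT HDW and 57438 to 68169 in GCN2KO unwounded cells. HK2 (hexokinase 2) was higher, with a log2 fold change of 1.04 (edgeR adjusted p = 1.79e-07, SE 0.0966) that was 0.97 or 0.99 without GCN2KO unwounded replicate 2 or 4.

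Among the DE genes with WT unwounded cells between the compared groups, a small set had both steps at least 1 on the log2 scale. These were 26 higher and 45 lower genes, in which the means of WT HDW and GCN2KO unwounded cells lay on opposite sides of WT unwounded cells. AKAP12, a scaffold of protein kinase A, had 1614, 1019.5, 1076, 1786 and 1491 normalized read counts in WT HDW, 179, 148, 139, 135 and 159 in WT unwounded and 28.4, 42.9, 19.3, 66.4 and 23.6 in GCN2KO unwounded cells (log2 fold change -5.27, edgeR adjusted p = 2.88e-10, SE 0.255). MCM10, a replication initiation factor, had 126, 42.9, 54, 87.7 and 102 in WT HDW and 0 to 3.36 in GCN2KO unwounded cells, against 9.29 to 27.8 in WT unwounded cells. IL33, an alarmin released by damaged epithelium, had 61.5, 55.5, 80.2, 55.8 and 84.8, 0 to 1.75 and 9.29 to 37.4 in the same order. NES, an intermediate filament protein of migrating and progenitor cells, had 79 raw counts over the WT HDW libraries and 1 over the GCN2KO unwounded ones, a ratio of 69.4 (exact 95% counting interval 12.1 to 2774). MMP9, described above, completes the 5 lower genes.

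In the higher direction, H4C8, another replication-dependent histone gene, had 221, 337, 360.5, 371 and 325 normalized read counts in GCN2KO unwounded, 17.8 to 30.2 in WT unwounded and 16, 7.57, 11, 5.98 and 6.92 in WT HDW cells (log2 fold change 5.06, edgeR adjusted p = 7.28e-11, SE 0.213). PINCR, a long noncoding RNA induced by p53, had 108, 132, 159.6, 130.3 and 209 in GCN2KO unwounded and 0 to 7.78 in WT HDW cells (log2 fold change 5.30, edgeR adjusted p = 3.22e-09, SE 0.332). The noncoding RNA listed as ENSG00000227619 had 170 raw counts over the GCN2KO unwounded and 0 over the WT HDW libraries, at least 64.5-fold higher when 3 counts over the group are taken as the floor. CDH18, a cadherin on chromosome 5, had 85 against 3 raw counts, a ratio of 32.3 (exact 95% counting interval 10.7 to 159.6), and FER1L6, a ferlin family membrane protein, stood at 18.6 to 34.1 against 0 to 2.52 normalized read counts. These intervals and the floor cover counting error only, and several of these genes are known from few reads.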

How the data were processed

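RNA-seq was performed on WT and GCN2KO NTERT keratinocytes, unwounded or 6 h after HDW, 5 libraries per group. The deposited values are raw counts of reads per gene, made by the authors with Trimmomatic, STAR and featureCounts, per the study's methods and processing notes. The annotation release and the strand setting are not given in the sources used here. Replicates of 5 were plated per group, and p-values measure the spread between these cultures. Each file held 57500 genes, of which 56410 matched GENCODE 44 for symbols and GRCh38 positions.

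The 10 libraries of GCN2KO unwounded and WT HDW were fitted together in edgeR 4.0.16 (R 4.3.3) without pairing. Genes were kept by filterByExpr (minimum count 10, minimum total 15), counts were scaled by TMM, and the quasi-likelihood test was adjusted by the Benjamini-Hochberg method. DE genes had an absolute log2 fold change of at least 1 and an adjusted p of at most 0.05, and same-level genes a 95% interval within ±0.5. Normalized read counts are counts scaled by the TMM library sizes, and log2 levels use a pseudocount of 0.5. Log2 fold changes against WT unwounded come from separate edgeR fits of those groups. DESeq2 1.42.0, limma 3.58.1 and other filters, scalings and margins served as alternatives. On simulated counts for 15626 genes, all 200 changed genes were recovered with 0 false calls. These changed genes had a mean of at least 50 counts and differed by more than the threshold for a DE gene. The simulated spread between libraries was smaller than in the data, so calls near the threshold or of weak genes were not checked.

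Named genes were EIF2AK4, the 10 higher and 10 lower DE genes of smallest adjusted p with no overlap and a mean of at least 50, the 6 same-level genes farthest above and 6 farthest below WT unwounded, the 5 genes in each direction with WT unwounded between the groups and both steps at least 1, and members of the gene lists. The part of the series, the lists and the genes shown were chosen with earlier results of these data known. Medians are given per chromosome in place of chromosome arms, whose bounds were not used here. Promoters of 489 of 626 list genes were matched by symbol to RefSeq windows of 250 bases before and 50 after the start. Motif shares over all promoters count windows, while those of lists count genes with the motif in any window, so they are unlike measures. Some genes and lists are not reported here.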

Additional observations from a re-analysis of the deposited data

Results flagged for a closer look

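Of 342 groups of 5 libraries examined, 21 had a highest or lowest library whose gap to the nearest other exceeded 0.71 of the range of the group, or 6.14%, where chance gives about 1 in 20. GCN2KO unwounded replicate 1 accounted for 13 of these. The values are normalized read counts unless given as totals, and no explanation was tested.

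Most of these values were the highest of their group. GCN2KO unwounded replicate 1 had FGFR3 at 804 (highest, others 474 to 512), KRT14 at 41608 (highest, others 32687 to 35212) and KRT15 at 98039 (highest, others 57254 to 67734). It also had EGR1 at 1107 (highest, others 581 to 729.6), MYC at 5352 (highest, others 4121 to 4399) and HBEGF at 674 (highest, others 618 to 629.6). It also had PHGDH at 5498 (highest, others 3969.8 to 4339.5), PCK2 at 4449.7 (highest, others 3671 to 3859) and MARS1 at 8806 (highest, others 7748 to 7969). It also had GPX2 at 298 (highest, others 196 to 212), TOP2A at 73.9 (highest, others 58.8 to 61.4) and MX1 at 9721 (highest, others 5889 to 6726). It also had GBP2 at 261 (highest, others 101 to 144). GCN2KO unwounded replicate 2 had CDH18 at 9.2 (lowest, others 16.7 to 19.4), NES at 1.53 (highest, others 0 to 0) and FLG at 106 (highest, others 49 to 63.7). GCN2KO unwounded replicate 3 had COL7A1 at 3900.4 (lowest, others 5691 to 6138). GCN2KO unwounded replicate 4 had ADAM8 at 134 (highest, others 81.9 to 96.5). WT HDW replicate 2 had ATF3 at 409 (highest, others 239 to 287). WT HDW replicate 4 had a total count at 29320528 (lowest, others 34136272 to 34611570). WT HDW replicate 5 had HMOX1 at 70.9 (lowest, others 90.3 to 94.7).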

How the results depend on the processing

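EIF2AK4 stayed lower in each alternative it was fitted in. The number of higher genes was 1820 in DESeq2, 2021 with no filter, 653 with a mean of at least 50 counts, 604 when glmTreat tested against the fold itself and 5371 by adjusted p alone. The number of lower genes was 893, 752 and 5309 in the last 3 of these, and 1667 in DESeq2 and 1913 with no filter, so that lower genes outnumbered higher ones in the fit reported here but not in DESeq2, with no filter or by adjusted p alone. Same-level genes numbered 2414 with the narrower margin and 11281 with a margin of 1 on the log2 scale. The genotype step was the larger in 1329 genes with a mean of at least 50 counts.

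Leaving out each library in turn gave 1188 to 1365 higher, 1325 to 1489 lower and 4884 to 5424 same-level genes, 2128 to 2372 genes with the larger genotype step, and log2 fold changes of EIF2AK4 from -2.25 to -2.19. When replicate numbers entered the fit as a block, the counts were 1196 higher, 1369 lower and 5218 at the same level, 2167 had the larger genotype step, and EIF2AK4 differed by -2.23. Same-numbered libraries correlated by -0.0114 to 0.0544 around their group means, so the numbers do not pair the libraries. Without the genes of chromosome 5, a setting chosen after seeing the data, 1094 were higher, 1312 lower and 5083 at the same level.

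Of 169 genes followed through the other tests, scalings, filters, samples and left-out libraries, 152 kept their call in all of these and 0 reversed, while glmTreat and the other thresholds and margins were run for the counts only. ADM2, AREG, CCNB1 (on chromosome 5), ENSG00000231196, FLG, GPAT3, HK2, IFI6, ITGB4, KRT34, LAMB3, LARS1 (also on chromosome 5), MX1, TNC, TRIB3 and ZNF488 lost theirs in at least 1 setting, and SPRR1B gained one without WT HDW replicate 2. The causes were not tested. Genes with few counts have wide intervals, and a gene outside the same-level class is not thereby shown to differ.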
